A study of Mus musculus with 18 samples.

Results

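The data described here are the transcript levels of tumor necrosis factor (Tnf), its receptors and the adaptors and survival factors that act below them, 10 genes of the 53379 in the deposited count table: Tnf, Tnfrsf1a, Tnfrsf1b, Traf1, Traf2, Traf3, Birc2, Birc3, Cflar and Tnfaip2. They were chosen by symbol, each matched 1 gene identifier, and all 10 passed the filter on low counts that left 11569 genes to test. RNA came from neutrophils sorted by FACS from the bone marrow of 10-week-old mice, wild type (WT) or labelled CIS-/-, a label for loss of CIS, the SH2-domain inhibitor of cytokine signaling encoded by Cish. Each genotype was sampled right after the sort (unstimulated) and after 4 h or 24 h in medium with 100 ng/mL GM-CSF, a growth factor of granulocytes and macrophages, with 3 libraries in each of the 6 groups. The labels name no background strain and do not say which bases the allele removes, and the treatment protocol gives another late time than the titles and the extraction protocol, whose 24 h is used here. No group was cultured without GM-CSF, so the effect of GM-CSF and that of culture cannot be told apart. Sorted cells were divided among the 3 times, and the labels do not say whether replicate libraries came from separate mice, so p-values measure the spread between libraries, which may be technical.

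TNF is made as a membrane protein, is released by the protease ADAM17 and acts through TNFR1, encoded by Tnfrsf1a, and TNFR2, encoded by Tnfrsf1b. TNFR1 carries a death domain and is expressed by most cells, whereas TNFR2 lacks one and is found mainly on immune cells and endothelium. Both recruit TRAF2 with the ubiquitin ligases cIAP1 and cIAP2, which favors NF-kB signaling, and c-FLIP, encoded by Cflar, restrains caspase-8 when signaling turns toward cell death. In neutrophils TNF is a priming signal that can either prolong survival or hasten apoptosis.

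Levels are given as CPM, the read count relative to the library size scaled by TMM, fold changes are log2 values ± SE, and adjusted p-values are from edgeR's quasi-likelihood test over all 11569 genes, with 0.05 as the threshold. The SE was computed back from that test, as the absolute log2 fold change divided by the square root of its F statistic. Library totals ran from 12170524 to 22539858 counts. Neutrophil markers dominated every library: the 12 listed genes summed to 129680 to 131020 CPM in unstimulated WT libraries and to 33897 to 38870 CPM at 24 h over both genotypes, with S100a9 the highest. Markers of T, B, NK and dendritic cells summed to at most 8.43 CPM in any library. The targeted gene Cish stood at 6.48, 6.52 and 6.5 CPM in unstimulated WT libraries and at 18.3, 19.98 and 17.9 CPM in those labelled CIS-/-. Unstimulated Cish RNA was thus higher where the label names a loss, and the bases that the allele removes are not stated. It stood at 1138 to 1155 CPM against 237 to 243 CPM at 4 h and at 1056 to 1069 CPM against 233 to 243 CPM at 24 h. The label is therefore given with every genotype comparison below. In bulk RNA of this kind, fewer cells of a type and less RNA per cell cannot be told apart.

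To show start regions, 4 promoters are printed, chosen after the values were seen. Those of Tnf, Tnfrsf1b and Traf1 belong to the genes with the largest genotype differences at 24 h. That of Traf3 was chosen because it ends in an NF-kB type match, though Cflar, Birc3 and Tnfaip2 differed more at 24 h. Sequences are from RefSeq on GRCm38.p6, the 250 bases before the start site on the gene's own strand, 5′ to 3′, and capitals mark the motif matches. They lie at chr17:35202008-35202257, minus strand (Tnf), chr4:145246871-145247120, minus strand (Tnfrsf1b), chr2:34961773-34962022, minus strand (Traf1) and chr12:111166120-111166369, plus strand (Traf3).
Tnf: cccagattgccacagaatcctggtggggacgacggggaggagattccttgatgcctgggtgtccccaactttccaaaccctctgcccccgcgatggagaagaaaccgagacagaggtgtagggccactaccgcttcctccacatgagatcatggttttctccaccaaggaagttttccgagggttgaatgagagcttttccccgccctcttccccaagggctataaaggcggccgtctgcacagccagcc
Tnfrsf1b: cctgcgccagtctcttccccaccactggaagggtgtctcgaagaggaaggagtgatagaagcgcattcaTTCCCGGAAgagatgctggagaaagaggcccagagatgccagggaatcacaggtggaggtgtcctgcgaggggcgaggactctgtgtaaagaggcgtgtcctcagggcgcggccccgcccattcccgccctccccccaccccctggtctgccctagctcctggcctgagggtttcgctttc
Traf1: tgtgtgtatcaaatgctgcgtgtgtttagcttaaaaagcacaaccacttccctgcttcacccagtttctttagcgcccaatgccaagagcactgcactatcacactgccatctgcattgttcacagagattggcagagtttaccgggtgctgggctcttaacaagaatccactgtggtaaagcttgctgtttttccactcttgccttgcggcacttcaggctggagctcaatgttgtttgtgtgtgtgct
Traf3: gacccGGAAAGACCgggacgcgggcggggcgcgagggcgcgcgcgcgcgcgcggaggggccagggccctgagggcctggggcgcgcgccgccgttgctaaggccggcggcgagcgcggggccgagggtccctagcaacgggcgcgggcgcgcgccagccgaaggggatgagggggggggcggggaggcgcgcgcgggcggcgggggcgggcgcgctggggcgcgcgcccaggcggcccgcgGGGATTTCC
The motifs searched on both strands were an NF-kB type site (GGNNTTTCC), the STAT5 palindrome (TTCNNNGAA) and an AP-1 site (TGANTCA), and no 2 of the matches overlapped. RefSeq promoters of 300 bases, 250 before and 50 after the start, were found for all 10 genes, and Birc2 had 2. Counting from the start site, Tnfrsf1b held TTCCCGGAA at positions -181 to -173, and Tnfrsf1a held TTCCGTGAA at -244 to -236. Traf3 held NF-kB type matches at -245 to -237 and at -9 to -1, Tnfaip2 held one at -87 to -79, and Traf2 held one after the start, at 33 to 41. The windows of Tnf, Traf1, Birc2, Birc3 and Cflar held none of the motifs, and no AP-1 letters were found in any. Over all 32851 promoters of the same length, 5.82% held the NF-kB type site, 8.3% the STAT5 palindrome and 7.81% the AP-1 site. A match, or the lack of one, is a description of these letters in these 300 bases only, and sites of other letters or farther away were not searched.

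The ligand rose in both genotypes at 4 h and then parted. Tnf (chr17:35199381-35202007 on GRCm38) was measured at 31.7, 34.3 and 29.5 CPM in unstimulated WT libraries and at 27.5, 28.7 and 27.1 CPM in those labelled CIS-/-. At 4 h it stood at 68, 64.8 and 70.9 CPM in WT and at 85.6, 87.8 and 87.1 CPM in the libraries labelled CIS-/-. Every library at 4 h lay above every unstimulated one, and the genotypes did not overlap at either time. At 24 h WT libraries held 66.6, 70.5 and 69.8 CPM, within the range of WT at 4 h, while libraries labelled CIS-/- held 595, 535 and 551 CPM. The difference between genotypes at 24 h was 3.02 ± 0.04 on the log2 scale, 8.12-fold (adjusted p = 5.46e-56), against 0.36 ± 0.05 at 4 h (adjusted p = 3.49e-08). Between 4 h and 24 h Tnf rose by 2.69 ± 0.04 in libraries labelled CIS-/- (adjusted p = 8.92e-53), and WT gave 0.03 ± 0.05 (adjusted p = 0.637), which library sizes alone, without TMM factors, raise to 0.51. The genotype difference was larger at 24 h than at 4 h by 2.66 ± 0.06 (adjusted p = 1.39e-42). Before stimulation Tnf was lower in libraries labelled CIS-/- (-0.19 ± 0.06, adjusted p = 0.0169). That call was lost without WT replicate 2 (adjusted p = 0.156), and without replicate 1 (0.0559) or 3 (0.0721) labelled CIS-/-. Adjusted p over its 27 alternatives ran from 0.00263 to 0.156.

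**Figure D1:**
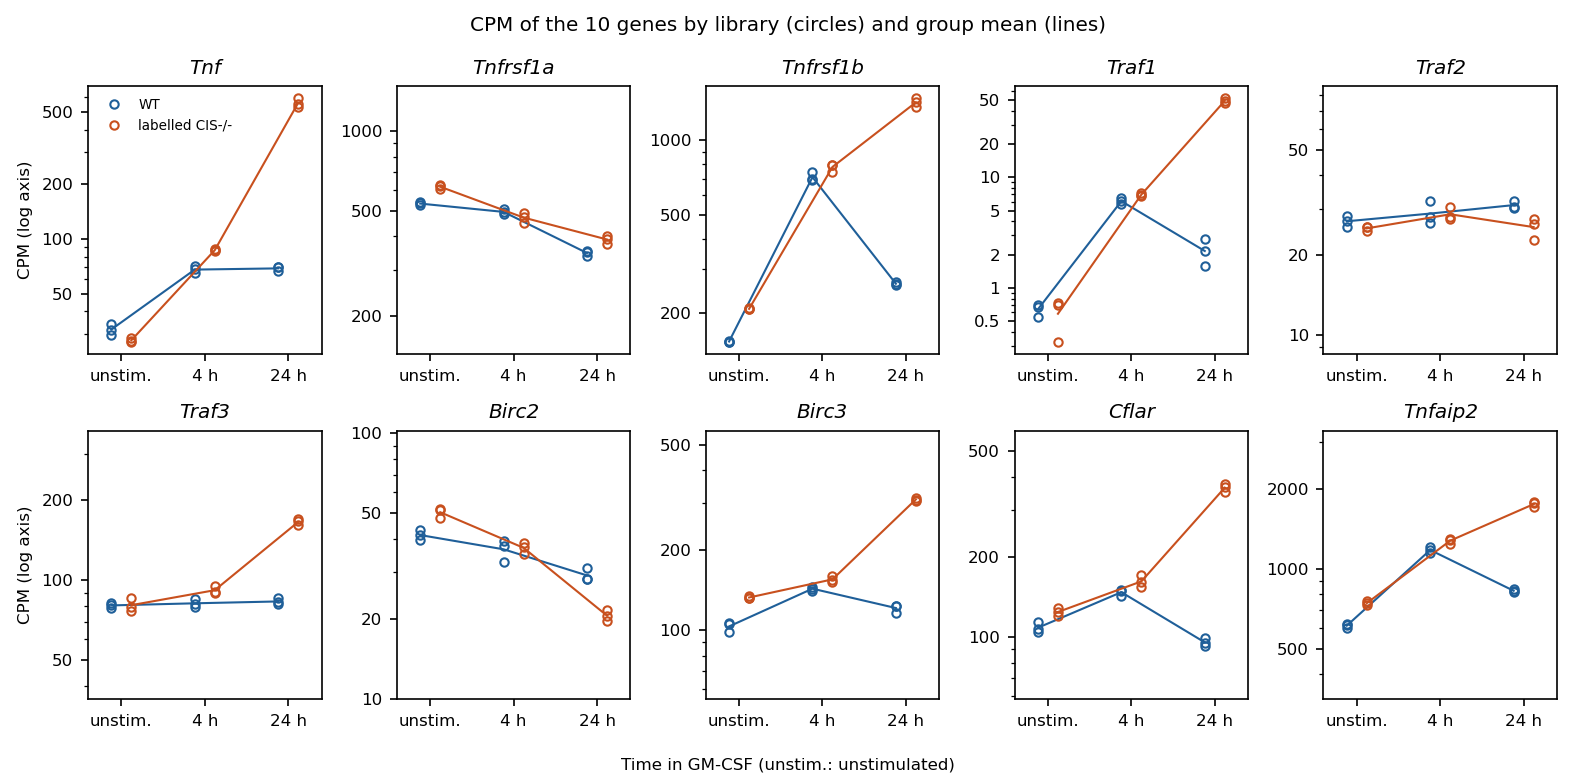
Level of each of the 10 genes in CPM (log axis) by time in GM-CSF; circles are libraries, lines join group means, blue is WT and orange is labelled CIS-/-. Tnf in the 3 libraries labelled CIS-/- at 24 h lay at 535 to 595 CPM against 66.6 to 70.5 CPM in WT, whereas Traf2 stayed between 22.9 and 32.1 CPM in every library.

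The receptors took separate courses. Tnfrsf1b (chr4:145213463-145246870) held 154, 153 and 152 CPM in unstimulated WT libraries and 207, 209 and 207 CPM in those labelled CIS-/-. At 4 h it reached 689, 696 and 744 CPM in WT and 797, 798 and 747 CPM in the libraries labelled CIS-/-. The genotypes did not overlap at either time, and both rose at 4 h, by 2.21 ± 0.04 in WT (adjusted p = 8.92e-52) and by 1.91 ± 0.04 in libraries labelled CIS-/- (adjusted p = 6.18e-49). At 24 h WT had fallen back to 266, 259 and 262 CPM, and libraries labelled CIS-/- had gone on to 1368, 1483 and 1429 CPM. The genotype difference at 24 h was 2.44 ± 0.04, 5.43-fold (adjusted p = 5.71e-55), and exceeded that at 4 h by 2.30 ± 0.05 (adjusted p = 8.29e-46). At 4 h the genotypes differed by 0.14 ± 0.03 (adjusted p = 0.00146). That was less than when unstimulated, and the change in the difference was -0.30 ± 0.05 (adjusted p = 3.75e-06).

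Tnfrsf1a (chr6:125349362-125362484) moved far less and mostly downward. Unstimulated WT libraries held 524, 538 and 534 CPM, and those labelled CIS-/- held 627, 618 and 602 CPM. The values at 24 h were 352, 338 and 349.5 CPM in WT and 403, 391 and 376 CPM in the libraries labelled CIS-/-, with the 4 h values in between and overlapping. The change from unstimulated to 24 h was -0.62 ± 0.03 in WT and -0.66 ± 0.03 in libraries labelled CIS-/- (adjusted p = 8.61e-25 and 3.63e-26), and the test of the difference between these changes gave -0.04 ± 0.05 (adjusted p = 0.453). The genotype difference at 24 h, 0.17 ± 0.03 (adjusted p = 1.43e-05), depended on scaling and turned to -0.36 with library sizes alone.

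A ratio within a library does not depend on the scaling. Per kilobase of merged exon, Tnfrsf1b stood at 0.195 ± 0.00397 (SD, n = 3) of Tnfrsf1a in unstimulated WT libraries and at 0.229 ± 0.0048 in those labelled CIS-/-. At 4 h the ratios were 0.973 ± 0.0215 and 1.12 ± 0.0184. At 24 h WT stood at 0.514 ± 0.0058 and libraries labelled CIS-/- at 2.49 ± 0.156. The ratio of Tnfrsf1b to Tnfrsf1a did not overlap between genotypes at any time, and on the log2 scale its difference at 24 h was 2.27. Comparisons of 3 against 3 libraries cannot fall below a two-sided exact permutation p of 0.1, the value here at all 3 times (0.15 adjusted over the 12 ratio comparisons computed). Tnf over Tnfrsf1a, per kilobase, was 0.315 ± 0.0153 in WT and 2.27 ± 0.0935 in libraries labelled CIS-/- at 24 h, and here too the genotypes did not overlap. In the latter group mean Tnf ranked the third of the 10 genes per kilobase, at 342 ± 18.8 CPM per kilobase, behind Tnfrsf1b at 374 ± 15 and Tnfaip2 at 351. Beside that spread (SD, n = 3) the place of Tnf among these genes was not resolved. In unstimulated WT libraries Tnf had ranked the fifth, at 19.4 CPM per kilobase, below Tnfrsf1a at 205.

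**Figure D2:**
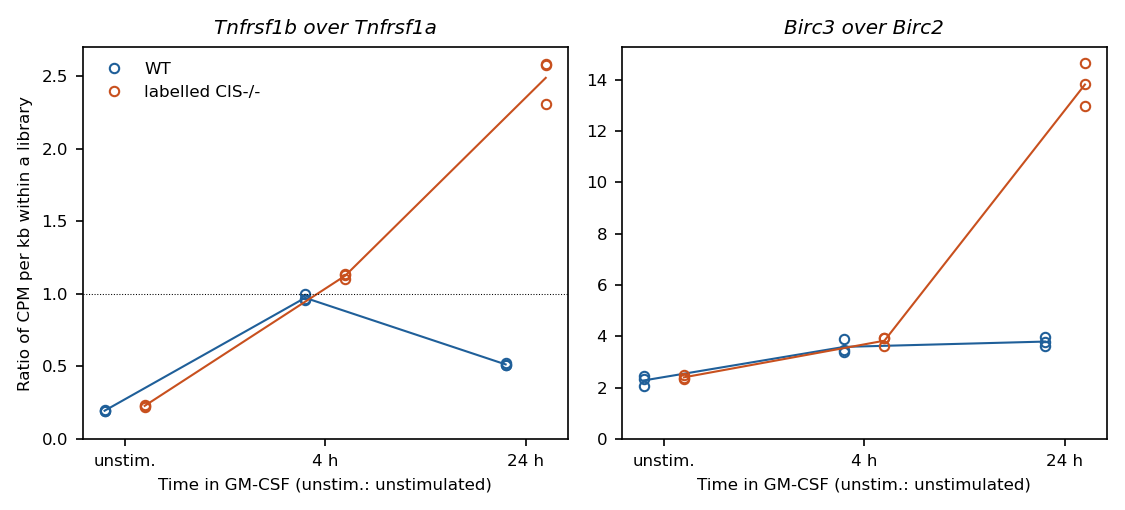
Ratio of CPM per kilobase of Tnfrsf1b to Tnfrsf1a (left) and of Birc3 to Birc2 (right) in each library by time in GM-CSF; circles are libraries, lines join group means, and the dotted line marks a ratio of 1. Tnfrsf1b over Tnfrsf1a reached 2.49 ± 0.156 in libraries labelled CIS-/- at 24 h against 0.514 ± 0.0058 in WT, and Birc3 over Birc2 reached 13.8 ± 0.842 against 3.8 ± 0.181.

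Among the TRAF adaptors Traf1 changed most, Traf3 rose at 24 h in libraries labelled CIS-/- and Traf2 kept to a narrow range. Traf1 (chr2:34941750-34961772), a TRAF without a RING domain that binds TRAF2 and is itself an NF-kB target, was close to the limit of detection before stimulation: 9, 10 and 13 reads in WT libraries and 12, 11 and 5 reads in those labelled CIS-/-. At 4 h it stood at 5.71, 6.46 and 6.11 CPM in WT and 7.22, 6.91 and 6.81 CPM in the libraries labelled CIS-/-. The rise from unstimulated was 3.23 ± 0.22 in WT and 3.55 ± 0.22 in libraries labelled CIS-/- (adjusted p = 1.71e-20 and 2.32e-22), and the 2 genotypes at 4 h, though not overlapping, differed by 0.19 ± 0.14 (adjusted p = 0.401), which missed the threshold. At 24 h WT libraries held 2.75, 1.56 and 2.16 CPM and those labelled CIS-/- 52, 48.6 and 47.1 CPM. The latter lay above every other library by more than 6-fold, and the genotype difference of 4.54 ± 0.10, 23.3-fold (adjusted p = 3.06e-44), was the largest of the 10 genes.

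Traf3 (chr12:111166370-111267153), which holds NIK for degradation and so restrains non-canonical NF-kB signaling, stayed between 76.7 and 95.2 CPM in all 15 other libraries. The 3 libraries labelled CIS-/- at 24 h stood apart, at 161, 167 and 169 CPM against 85.6, 83.2 and 81.2 CPM in WT. That difference was 0.99 ± 0.04, 1.99-fold (adjusted p = 1.29e-30), and it exceeded the one at 4 h by 0.83 ± 0.06 (adjusted p = 3.06e-18). Traf2 (chr2:25517982-25546940), the shared adaptor that brings the cIAP ligases to both receptors, ranged from 22.9 to 32.1 CPM over the 18 libraries. Its group means lay between 25.3 and 30.9 CPM, and in their order each group overlapped with the next. At 24 h WT libraries held 30.2, 30.4 and 32.1 CPM and those labelled CIS-/- 26.2, 27.5 and 22.9 CPM, without overlap, a difference of -0.29 ± 0.07 (adjusted p = 9.62e-05). Its fall from 4 h to 24 h in libraries labelled CIS-/- (-0.18 ± 0.07, adjusted p = 0.027) was not called by DESeq2 (0.138), with the compared groups only (0.050), nor without replicate 1 at 4 h (0.131) or replicate 3 at 24 h (0.350). Over 28 alternatives its adjusted p ran from 0.00777 to 0.350.

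The cIAP genes, neighbors on chromosome 9 with 11.6 kb between them, moved apart. Birc3 (chr9:7848699-7873186), which encodes the NF-kB-inducible cIAP2, held 98.2, 106 and 106 CPM in unstimulated WT libraries and 132, 132 and 134 CPM in those labelled CIS-/-. At 24 h it held 124, 123 and 117 CPM in WT and 314, 308 and 310.4 CPM in the libraries labelled CIS-/-. The latter were the highest of all libraries. At 4 h it held 141 to 146 CPM in WT, above both the unstimulated and the 24 h WT libraries, and 152 to 159.8 CPM in the libraries labelled CIS-/-, between their unstimulated and 24 h levels. At 24 h the genotypes differed by 1.36 ± 0.04, 2.56-fold (adjusted p = 8.63e-41). Birc2 (chr9:7818227-7837064), which encodes cIAP1, fell instead. It held 43.3, 39.7 and 41.4 CPM in unstimulated WT libraries and 48.2, 51.4 and 52 CPM in those labelled CIS-/-, and at 24 h 31.1, 28.2 and 28.3 CPM and 19.6, 21.7 and 20.5 CPM. Libraries labelled CIS-/- were thus above WT before stimulation (0.28 ± 0.06, adjusted p = 1.14e-04) and below it at 24 h (-0.50 ± 0.07, adjusted p = 1.96e-09), with no overlap at either time. The genotype difference fell between the times by 0.79 ± 0.09 (adjusted p = 1.49e-11). Per kilobase, Birc3 over Birc2 was 3.8 ± 0.181 in WT and 13.8 ± 0.842 in libraries labelled CIS-/- at 24 h (SD, n = 3). This ratio did not overlap between genotypes at 24 h, but did when unstimulated and at 4 h. The 2 genes shared 93 stretches of 31 bases, of 4579 in Birc2 and 5058 in Birc3, so few reads could be taken for those of the other gene.

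Cflar (chr1:58711508-58758884), the c-FLIP gene, stood at 113, 105 and 107 CPM in unstimulated WT libraries and 124, 120.0 and 128 CPM in those labelled CIS-/-. At 4 h both genotypes were higher, at 150.4, 149 and 143 CPM in WT and 154, 161 and 170.2 CPM in the libraries labelled CIS-/-. At 24 h WT libraries held 94.4, 99.3 and 92.3 CPM, the lowest group, and libraries labelled CIS-/- held 351, 367 and 375 CPM, the highest. The 24 h difference was 1.93 ± 0.04, 3.82-fold (adjusted p = 6.84e-47). Between unstimulated and 24 h it fell in WT by 0.18 ± 0.04 (adjusted p = 1.02e-04), a value that turned to 0.13 with library sizes alone. Casp8, the caspase that c-FLIP restrains, was added after its values were seen. At 24 h it differed in the same direction, by 1.39 ± 0.05 (adjusted p = 4.46e-36). WT libraries then held 45.2, 44.7 and 44.2 CPM of Casp8, and those labelled CIS-/- 125, 114 and 113 CPM. Its course was another: mean Casp8 in WT was 22 CPM when unstimulated, 119 CPM at 4 h and 44.7 CPM at 24 h. With the CIS-/- label these means were 17.2, 141 and 117.5 CPM. Casp8 thus fell after 4 h in both genotypes, whereas Cflar rose with the CIS-/- label.

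Tnfaip2 (chr12:111442469-111455018), a TNF-induced gene first described in endothelial cells, was the most abundant of the 10 genes in CPM and ranged from 596 to 1782 CPM. Its group means rose from 610.4 ± 12.6 CPM (SD, n = 3) in unstimulated WT libraries to 1176 ± 29.8 CPM at 4 h, and stood at 826 ± 9.49 CPM at 24 h. In libraries labelled CIS-/- they were 742 ± 11.8, 1275 ± 29 and 1749 ± 38.5 CPM. No 2 groups next to each other in the order of levels overlapped. The 24 h genotype difference was 1.08 ± 0.03, 2.12-fold (adjusted p = 2.13e-39). An antisense gene, Gm40578, shares 314 exon bases with it but held 88 reads in all against 299760.

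Counted over the 10 genes, 4 h of GM-CSF in WT was followed by a rise of 6 (Tnf, Tnfrsf1b, Traf1, Birc3, Cflar and Tnfaip2) and a fall of 2 (Tnfrsf1a and Birc2), where 38.1% of all tested genes rose and 38.2% fell. The Birc2 fall (-0.18 ± 0.06, adjusted p = 0.00813) was lost without WT replicate 1 at 4 h (0.145, the highest of 28 alternatives that began at 9.17e-07). In libraries labelled CIS-/- 8 rose and 2 fell at 4 h, against 37.9% and 39.1% of all genes. The added rises there were those of Traf2 (0.17 ± 0.07) and Traf3 (0.19 ± 0.05), and neither was called with library sizes alone, nor was that of Birc3. Between unstimulated and 24 h, 6 rose and 3 fell in WT (40.7% and 37.7% of all genes), and 7 rose and 2 fell in libraries labelled CIS-/- (42.1% and 42% of all genes). Library sizes alone make the WT split 8 and 2 and the other 7 and 3, and add a fall of Traf3 (-0.15) in WT at 4 h. The time comparisons within a genotype share libraries, so their counts are set side by side only.

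From 4 h to 24 h the genotypes went opposite ways for 5 genes. In WT 0 of 10 rose and 7 fell (35.7% and 39.6% of all genes), with 0 rises also at an unadjusted p of 0.05 and by DESeq2 or limma-voom, and 1 with the compared groups only. In parallel, in libraries labelled CIS-/- 7 rose and 3 fell (37.8% and 37.9%). Tnfrsf1b fell by 1.43 ± 0.03 in WT and rose by 0.87 ± 0.03 in libraries labelled CIS-/-. Traf1 fell by 1.53 ± 0.16 and rose by 2.82 ± 0.09, and Cflar fell by 0.63 ± 0.04 and rose by 1.17 ± 0.04. Birc3 changed by -0.24 in WT and 1.0 in the other genotype, and Tnfaip2 by -0.51 and 0.46. The WT side of this depended on scaling. With library sizes alone, 5 genes rose and 3 fell in WT: Tnfrsf1b, Traf1 and Cflar still fell, Birc3 (0.25) and Birc2 (0.16) rose, and Tnfrsf1a (-0.03) and Tnfaip2 (-0.02) were not called, while the 7 and 3 in libraries labelled CIS-/- stayed. The difference between the genotypes' changes was called for all 10 genes, higher for 8 and lower for Traf2 and Birc2, against 33.9% higher and 32.1% lower over all genes. With library sizes alone it was higher for 7, since Tnfrsf1a turned from 0.24 to -0.28. The call of Traf2 was lost in 2 of the 18 fits with 1 library left out.

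**Figure D3:**
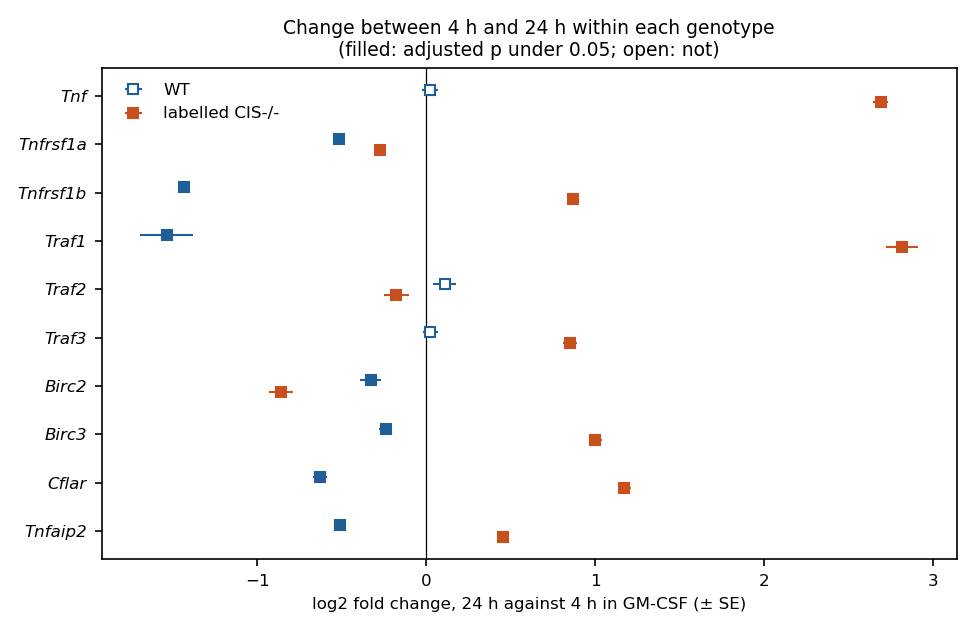
Log2 fold change from 4 h to 24 h in GM-CSF within WT (blue) and within libraries labelled CIS-/- (orange), with SE bars; filled squares passed an adjusted p of 0.05. Tnfrsf1b, Traf1 and Cflar fell in WT and rose in libraries labelled CIS-/-; the WT falls of Birc3 and Birc2 turn to rises with library sizes alone, and those of Tnfrsf1a and Tnfaip2 are then not called.

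Between genotypes, 6 genes were higher and 1 lower in unstimulated libraries labelled CIS-/-, where 12.9% of all genes were higher and 9.41% lower. The higher ones ranged from 0.20 (Cflar) to 0.44 (Tnfrsf1b), and Tnf was the lower one. At 4 h 6 were higher and 0 lower (8% and 9.3% of all genes), from 0.12 (Birc3) to 0.36 (Tnf). Without replicate 2 at 4 h of either genotype only 3 were called. Tnfrsf1a was lower at an unadjusted p of 0.0434, which missed the threshold once adjusted, and DESeq2 also called 0 lower. Birc3 was lost in 5 of its 28 alternatives (adjusted p from 0.00333 to 0.152), Cflar in 3 (0.000819 to 0.176), Traf3 in 2 (0.000396 to 0.0836) and Tnfaip2 in 1 (1.28e-05 to 0.0505). At 24 h 8 were higher and 2, Traf2 and Birc2, lower, where 38.2% and 38.1% of all genes were. The median over the 10 genes was 1.22, beside -0.02 over all genes. Library sizes alone make this 7 and 3 through Tnfrsf1a, with 2558 genes higher and 6999 lower over the whole table in place of 4416 and 4411.

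**Figure D4:**
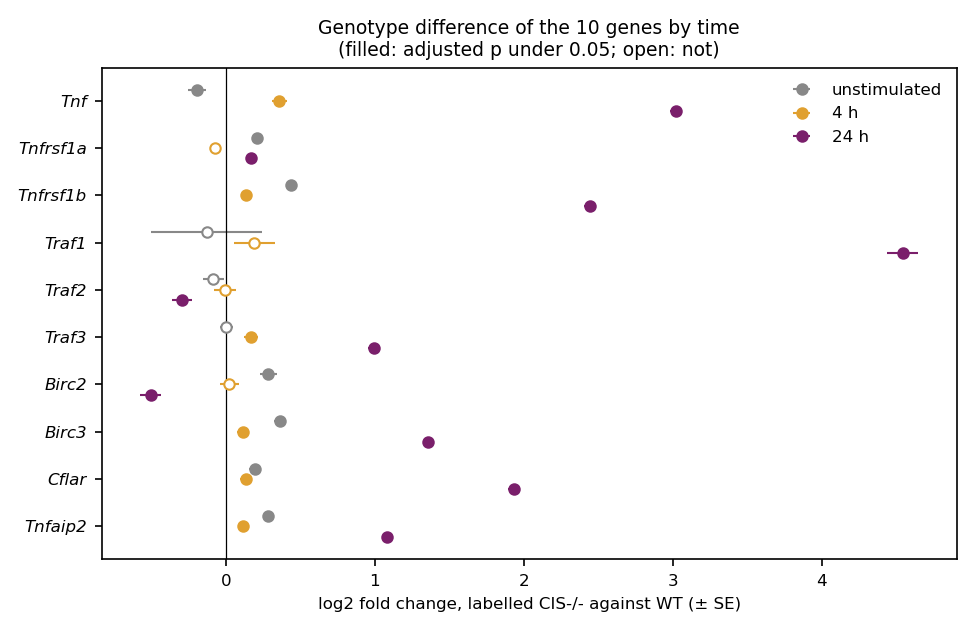
Log2 fold change of libraries labelled CIS-/- against WT for each gene, unstimulated (gray), at 4 h (yellow) and at 24 h (purple), with SE bars; filled circles passed an adjusted p of 0.05. At 24 h Traf1 (4.54), Tnf (3.02) and Tnfrsf1b (2.44) lay farthest to the right, and Tnfrsf1a (0.17) turns to -0.36 with library sizes alone.

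The genotype difference changed with time for most genes. Between unstimulated and 4 h it rose for 1 gene, Tnf, and fell for 5 (5.32% and 10.4% of all genes), the latter being Tnfrsf1a, Tnfrsf1b, Birc2, Birc3 and Tnfaip2. The call of Birc2 (-0.26 ± 0.09, adjusted p = 0.0304) held in 16 of 27 alternatives, with adjusted p from 0.00598 to 0.128. That of Tnfaip2 was lost with no low-count filter (0.0923, in a range from 0.000204). With library sizes alone Traf3 was called (0.19) and Birc2 was not, which made 2 higher and 4 lower. Between unstimulated and 24 h it rose for 7 genes and fell for 1, Birc2, with 31.6% and 33.1% over all genes. Tnf gained most after Traf1, 3.21 ± 0.07 (adjusted p = 2.22e-43) against 4.67 ± 0.44 (adjusted p = 1.75e-14), and neither Tnfrsf1a (-0.04) nor Traf2 (-0.21) was called, though both were, as lower, with library sizes alone.

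Summed markers of 3 other cell types did not overlap between genotypes at 24 h. Those of B cells did not either, near the floor, at 0.343 to 0.372 CPM in WT and 0.651 to 1.1 CPM in libraries labelled CIS-/-. The 10 listed monocyte and macrophage markers summed to 320 to 331 CPM in unstimulated WT libraries and to 304 to 318 CPM in those labelled CIS-/-, and at 4 h to 156 to 163 CPM and 212 to 217 CPM, lower than before stimulation in both genotypes. At 24 h they summed to 502 to 523 CPM in WT and to 942 to 984 CPM in the libraries labelled CIS-/-. Most of the 24 h sum was Adgre1, at 344 and 777 CPM, with Csf1r at 163 and 169 CPM. C1qa and C1qc were at 0 in WT at 24 h, and C1qb was at 0 in libraries labelled CIS-/-. The 6 granulocyte progenitor markers summed to 34.5 to 37.2 CPM in unstimulated WT libraries and 25.3 to 28.8 CPM in those labelled CIS-/-, and to 140.2 to 154 CPM and 164 to 167 CPM at 4 h. They summed to 199 to 202 CPM in WT and to 343 to 385 CPM in the libraries labelled CIS-/- at 24 h, and most of it was Kit, at 187 and 366 CPM. The sum hides the other members: of 5 tested at 24 h, 1 was higher and 3 were lower in libraries labelled CIS-/-. Their median was -0.96, and 38.2% of all genes were higher and 38.1% lower. The 5 erythroid markers were higher in libraries labelled CIS-/- at each time and lowest at 24 h in both genotypes, at 88.6 to 89.9 against 32.2 to 34.6 CPM when unstimulated, at 59 to 87.6 against 23.4 to 27.9 CPM at 4 h and at 23.3 to 33.8 against 5.96 to 7.37 CPM at 24 h. The 12 neutrophil markers summed to 33897 to 35274 CPM in WT and 34317 to 38870 CPM in the libraries labelled CIS-/- at 24 h. This sum joins moves both ways: of the 12, all tested, 6 were called higher and 5 lower with the CIS-/- label. Mean levels, WT first, were 9660 and 13645 CPM for S100a9 and 261 and 580 CPM for Ltf. Csf3r (5900 and 2326 CPM) and Cxcr2 (1835 and 867 CPM) went the other way. The part of cells of other types in the results above was not tested.

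Over the 18 libraries the genes whose log2 CPM followed Tnf most closely, of 7068 with at least 10 CPM in a group, were Mapkapk2 (Pearson's r 0.994), Adam17 (0.994), Fas (0.993), Slc1a5 (0.993), 1810037I17Rik (0.992) and Stx6 (0.992). The libraries form 6 groups, so these values rest largely on group means and are a description. Mapkapk2, the kinase MK2 that favors TNF mRNA stability and translation, stood at 467, 454 and 465 CPM in WT and 2227, 2319.8 and 2329 CPM in the libraries labelled CIS-/- at 24 h. Adam17, the TNF sheddase, stood at 115, 114 and 115 and 542, 572 and 579 CPM. Neither gene's libraries overlapped between genotypes at that time. Both were picked for their likeness to Tnf, which did not overlap either, so this is no separate result. Of the other 9 genes, Traf1 ranked highest, at 216 (r 0.952), then Traf3 at 309, Birc3 at 339, Cflar at 675, Tnfaip2 at 691 and Tnfrsf1b at 880. Birc2 ran against Tnf (r -0.918), as did Tnfrsf1a less closely (-0.642), and Traf2 was near 0 (-0.100). Within the 10 genes the closest pair was Tnfrsf1b and Tnfaip2 (0.995), then Birc3 and Cflar (0.970).

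The wider pathway was described from 7 gene lists, by their counts at 24 h between genotypes beside the 38.2% higher and 38.1% lower of all genes, whose median log2 fold change was -0.02. Of 17 TNF superfamily ligands 5 were tested, 1 was higher and 3 were lower (median -1.10, 1 and 4 with library sizes alone). The higher one was Lta, which encodes lymphotoxin alpha, another ligand of both TNF receptors. It was measured at 1.82, 1.5 and 1.57 CPM in WT and 69.1, 63.8 and 55.8 CPM in the libraries labelled CIS-/-, a difference of 5.27 ± 0.12 (adjusted p = 2.26e-39). Unstimulated libraries held 8 Lta reads in WT and 2 in those labelled CIS-/-, over 3 libraries each. Tnfsf13b (-1.87), which encodes the B-cell factor BAFF, and Tnfsf14 (-1.10), which encodes LIGHT, were lower. Tnfsf13b was by then at low counts: 96 reads over 3 WT libraries (mean 1.34 CPM) against 16 reads (mean 0.392 CPM) with the CIS-/- label. Its unstimulated means, WT first, were 65.4 and 69.4 CPM, so most of its fall was common to both genotypes. Of 26 receptors of the superfamily 13 were tested, 7 higher and 6 lower (median 0.45, with library sizes alone -0.08, 6 higher and 6 lower). Tnfrsf26 (2.10), Tnfrsf12a (1.96), the TWEAK receptor, and Tnfrsf8 (1.71), which encodes CD30, were higher, and Tnfrsf18 (-2.15), which encodes GITR, was lower. Tnfrsf26 went from 7.22, 7.39 and 5.75 CPM in unstimulated WT libraries to 396, 397 and 389 CPM at 4 h, without overlap, and stood at 136, 142 and 129.6 CPM in WT and 596, 561 and 586 CPM in the libraries labelled CIS-/- at 24 h.

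Of 15 genes of the receptor complex and death signaling, 7 were higher and 5 lower (median -0.04, with library sizes alone -0.58, 4 higher and 10 lower). Ripk3 (2.79), the kinase of necroptosis, and Traf6 (2.27), which serves Toll-like and interleukin-1 receptors, were higher, and Traf5 (-1.83) was lower. Between 4 h and 24 h mean Ripk3 went from 13.4 to 1.63 CPM in WT. In libraries labelled CIS-/- mean Ripk3 went from 12.4 to 11.5 CPM. Mean Traf6 went from 144 to 47.5 CPM in WT and from 208 to 229 CPM in libraries labelled CIS-/-. Mlkl, the target of RIPK3, stood at 0.47 and 0.4 mean CPM in WT and in libraries labelled CIS-/- and was not called; it was named after its values were seen. Among 21 ubiquitin ligases, deubiquitinases and kinases 12 were higher and 9 lower (median 0.24, with library sizes alone -0.29, 7 and 13). Those with the largest differences were Ikbke (2.98), Tnfaip3 (2.91), which encodes the inhibitor A20, Tbk1 (1.63) and Tank (1.59). Tnfaip3 stood at 66.3, 68.6 and 68.2 CPM in WT and 472, 519 and 532 CPM in the libraries labelled CIS-/-.

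Of 11 genes of TNF production and shedding 10 were tested, 7 higher and 3 lower (median 0.50, with library sizes alone -0.03, 5 and 5). Besides Mapkapk2 (2.31) and Adam17 (2.30), Zfp36 (2.20), whose product tristetraprolin destabilizes Tnf mRNA, was higher, and Mapk14 (-1.63), the p38 kinase above MK2, was lower. Zfp36 followed another course than Tnf: it stood at 2013, 2034 and 1998 CPM in unstimulated WT libraries, at 289, 295 and 294 CPM in WT at 24 h and at 1419, 1349 and 1281 CPM in the libraries labelled CIS-/- at 24 h. The highest values were those before stimulation, also in libraries labelled CIS-/- (2642 to 2683 CPM). Among 5 other TNF-induced protein genes tested of 7, 3 were higher and 1 lower (median 0.20, with library sizes alone -0.33, 2 and 3). The largest differences were those of Tnfaip6 (4.23) and Tnfaip3. Tnfaip6 was near the floor in WT at 24 h, at 16 reads over 3 libraries (mean 0.226 CPM). With the CIS-/- label it held 192 reads (mean 4.42 CPM). Both means lay below those before stimulation, which were 3.71 CPM for WT and 7.48 CPM with the label. Tnfaip8l2 (-1.03) was lower, and Tnfaip1 stood at 0.20, which turns to -0.33 with library sizes alone.

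All 11 NF-kB subunits and inhibitors were higher at 24 h (median 2.04, with library sizes alone 1.5, 9 higher and 1, Rela, lower). The largest differences were those of Nfkbia (3.28), Relb (2.63), Nfkbib (2.47) and Nfkbiz (2.33). Nfkbia, which encodes the inhibitor IkB alpha and is itself an NF-kB target, stood at 225, 222 and 234 CPM in WT and 2399.8, 2085 and 2118 CPM in the libraries labelled CIS-/-. In unstimulated libraries 8 of the 11 were called, all higher, where 12.9% of all genes were higher and 9.41% lower. At 4 h 7 were called, again all higher, where 8% and 9.3% of all genes were. The list's medians were 0.28 and 0.19 beside -0.01 and -0.02 over all genes. In WT the list's median change from 4 h to 24 h was 0.03, and in libraries labelled CIS-/- it was 1.55, beside -0.04 and -0.01 over all genes. The WT median joins moves both ways, from -1.82 (Nfkb1) to 0.93 (Nfkb2). It also depends on scaling, since the TMM factors of WT libraries differ between these times.

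**Figure D5:**
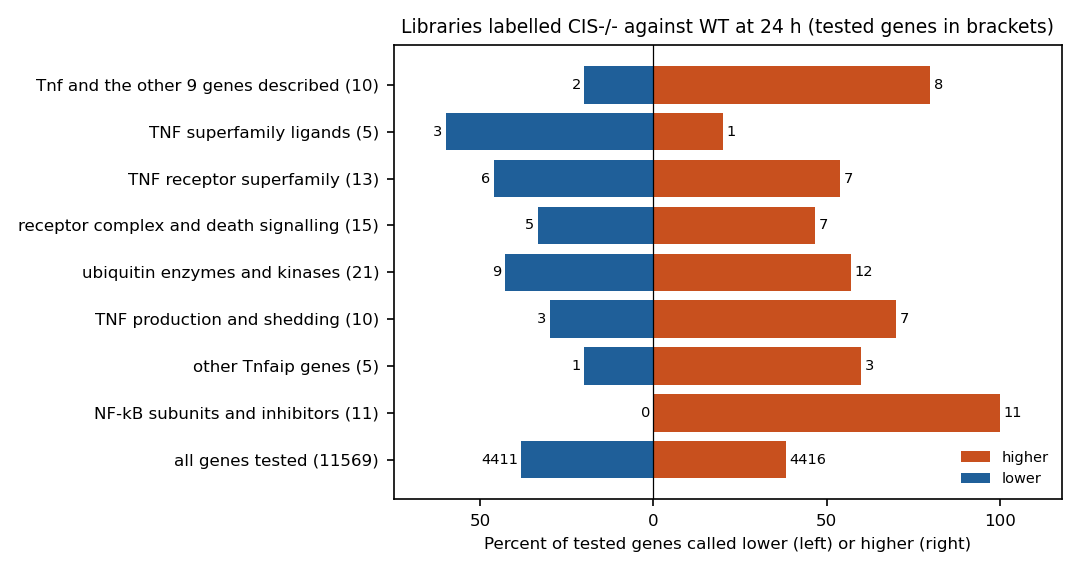
Percent of tested genes called higher (orange, right) or lower (blue, left) in libraries labelled CIS-/- against WT at 24 h, for the 10 genes, each of the 7 pathway lists and all 11569 genes; numbers at the bars are gene counts. All 11 NF-kB genes were higher, 9 with library sizes alone, beside 4416 higher and 4411 lower of all genes, which become 2558 and 6999.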

How the data were processed

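The deposited table gives unnormalized counts of reads for each gene. The submitters' processing notes list mm10 and the tools Trimmomatic, STAR and featureCounts. The kit was directional per the labels' protocols, while the counting's strand setting and the tools' versions were not stated there. Gene symbols and exon lengths came from GENCODE M21 (GRCm38), which matched 53274 of 53379 identifiers. Counts were filtered with filterByExpr by group (11569 genes, 99.928% of counts) and tested in edgeR 4.0.16 (R 4.3.3) with TMM factors and 1 robust quasi-likelihood model of the 6 groups and 18 libraries, Benjamini-Hochberg adjusted. The TMM factors were 1.28 to 1.29 in WT at 24 h and 0.884 to 0.894 in libraries labelled CIS-/- at 24 h. No pair of replicates agreed within sampling noise (chi-square per degree of freedom 1.285 to 8.461 over 18 pairs). The pipeline was tested on simulated data. Alternatives used DESeq2 1.42.0, limma-voom (3.58.1), other scaling and filters, the compared groups only, a replicate block, a non-robust prior and each library left out; fits without the 3 unstimulated libraries labelled CIS-/- were chosen after seeing the data. The members, lists and rules were chosen with earlier results of these data known. Named were all 10 members, up to 4 called genes per list with the largest change and at least 1 CPM, the 6 genes most correlated with Tnf, and Cish; some genes that these rules name are not reported here.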

Additional observations from a re-analysis of the deposited data

Results flagged for a closer look

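The genotype difference (labelled CIS-/- minus WT, log2 scale) changed between times by the edgeR test of the difference itself in 24 cases, given here as values. From unstimulated to 4 h the changes were 0.55 for Tnf, -0.28 for Tnfrsf1a, -0.30 for Tnfrsf1b, -0.26 for Birc2, -0.24 for Birc3 and -0.16 for Tnfaip2. From unstimulated to 24 h they were 3.21 for Tnf, 2.0 for Tnfrsf1b, 4.67 for Traf1, 0.99 for Traf3, -0.79 for Birc2, 1.0 for Birc3, 1.74 for Cflar and 0.80 for Tnfaip2. From 4 h to 24 h they were 2.66 for Tnf, 0.24 for Tnfrsf1a, 2.30 for Tnfrsf1b, 4.35 for Traf1, -0.29 for Traf2, 0.83 for Traf3, -0.53 for Birc2, 1.24 for Birc3, 1.80 for Cflar and 0.97 for Tnfaip2. Groups of 3 libraries were not tested for single outlying values.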

How the results depend on the processing

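The log2 fold changes of the 10 genes in 12 comparisons were recomputed under 11 other settings and with each of the 18 libraries left out, 3310 values in all. Of these 3239 kept their direction and side of the threshold (or, for 31, stayed uncalled with a change of sign), 43 fell below it, 22 rose past it and 6 reversed. All 6 reversals came with library sizes alone: Traf3 in WT at 4 h against unstimulated (-0.15), Cflar in WT at 24 h against unstimulated (0.13), Birc2 (0.16) and Birc3 (0.25) in WT from 4 h to 24 h, Tnfrsf1a between genotypes at 24 h (-0.36) and its change in that difference from 4 h to 24 h (-0.28). Without TMM factors the median of all genes became -0.19 and 0.36 in WT at 4 h and 24 h against unstimulated, 0.45 from 4 h to 24 h, -0.17 and -0.20 in libraries labelled CIS-/- at 4 h and 24 h against unstimulated, and -0.55 between genotypes at 24 h, whose change from unstimulated and from 4 h became -0.51 and -0.53. It split the calls of all genes into 6352 higher and 3164 lower in WT at 24 h against unstimulated, 6763 and 2506 from 4 h to 24 h, 1168 and 1660 between unstimulated genotypes, and 2028 and 6178 or 2247 and 6154 for the change of the genotype difference from unstimulated or from 4 h to 24 h. The number of the 10 genes called stayed within 1.5 times under all settings, except between genotypes at 4 h, where leaving out 1 library gave 3 to 6 in place of 6, the lowest without replicate 2 at 4 h of either genotype. With the replicate block that number was 6, and no call of the 10 genes changed; the numbers were not taken as pairs, since deviations of same-numbered libraries correlated at -0.169 to 0.182 over 27 pairs and 8 of 18 libraries correlated best with their own number. Low counts limit Traf1 before stimulation, where SE reached 0.37 between genotypes.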

Other observations

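Tnf lies between Ltb and Lta on chromosome 17, with 3.06 kb and 1.16 kb between them. At 24 h its neighbor Lta differed between genotypes by 5.27 ± 0.12 and Tnf by 3.02 ± 0.04, while Ltb, which encodes lymphotoxin beta, gave 0.03 ± 0.04 (adjusted p = 0.538, -0.51 with library sizes alone) at mean levels of 409 CPM in WT and 417 CPM in the libraries labelled CIS-/-. Traf3 and Tnfaip2 lie on chromosome 12 with 175 kb and 4 protein-coding genes between them.

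Kit, the stem cell factor receptor, stood apart from the other 5 granulocyte progenitor markers at 24 h. Its mean was 187 CPM in WT and 366 CPM in the libraries labelled CIS-/-, against 17.9 and 17.2 CPM when unstimulated, while Elane, Mpo, Prtn3 and Ctsg were each lower on average in libraries labelled CIS-/- than in WT at all 3 times. Ccr3, an eosinophil marker, was at 1.6, 1.98 and 1.37 CPM in WT and at 10.2, 20.9 and 14.1 CPM in the libraries labelled CIS-/- unstimulated, at 4 h and at 24 h, whereas the means of Siglecf, Prg2 and Epx at 24 h were lower in the latter, at 34.3 against 52.3 CPM, 4.4 against 6.06 CPM and 0.758 against 1.06 CPM. These marker genes were named after their values were seen.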
